A study of Mus musculus with 17 samples.

Results

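Bulk RNA-seq of brain tissue was compared between a 6-OHDA-induced PD model and healthy controls (sham). Members were all genes of the deposited count table, compared between 1 library labelled 6-OHDA and 2 libraries labelled Sham-control, which are 3 of the 17 samples of the series. Of 20328 genes listed, 19300 passed a filter on low counts and were tested. All mice were wild-type ICR mice. The 6-OHDA mice received 6-hydroxydopamine (10 µg/µl) into the substantia nigra on 1 side at 8 weeks of age. A further 2 libraries, from mice given NDST3 after the same lesion, entered the model to estimate the spread between libraries. They also took part in the filter on low counts, which 19005 genes passed without them, and in the scaling. Per the methods, lesioned mice then received saline or NDST3. The labels name the tissue as Brain, the study describes its sham and 6-OHDA expression data as those of the substantia nigra, and how the tissue was dissected and how long after the lesion are not given in the sources used here. The study counts animals or cultures as its replicates in general, and how many animals each of these libraries holds is not given, so the p-values measure the spread between these libraries, part of which may be technical.

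6-OHDA is a hydroxylated dopamine analogue. It is carried into catecholamine neurons by the dopamine and noradrenaline transporters, oxidizes there and damages mitochondria, which kills the cells. Dying neurons and their debris are met by microglia and astrocytes. Activated microglia are known to switch on phagocytic, lysosomal and lipid-handling genes, while astrocytes raise intermediate filaments and secreted proteins.

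The 5 libraries held 51003699 to 70533326 counts. The sham libraries were not alike in every respect. Among genes called higher in the 6-OHDA library, 77.6% had a higher value in sham 1 than in sham 2, against 18% of genes called lower and 46.3% of genes not called. Sham 1 therefore lay nearer to the 6-OHDA library at most called genes. Without sham 1, or without sham 2, no gene passed the adjusted threshold by edgeR, while 7499 and 6284 genes respectively had an unadjusted p under 0.05. All 6915 called genes that were still tested kept their direction in both cases. That outcome was largely fixed beforehand, since at every called gene the 6-OHDA value lay outside both sham values. Where leaving out 1 sham library moved a fold change more than 1.5 times, the value against sham 2 alone and the value against sham 1 alone are given in that order, called the single-sham values.

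Expression differed widely between the 6-OHDA and sham libraries. At an adjusted p under 0.05 (quasi-likelihood test of edgeR, Benjamini-Hochberg), 3625 genes rose, which is 18.8% of those tested, and 3291 genes fell, which is 17.1%. With the rule of at least a 2-fold change and an unadjusted p under 0.05, 2780 genes (14.4%) were higher and 1951 (10.1%) were lower. The 6-OHDA value lay above both sham values for 45.3% of genes and below both for 44.3%. These background shares stand behind each count of genes below. The median log2 fold change was -0.0025 over all tested genes, 1.35 over genes that rose and -0.98 over genes that fell. Rises were more often large, with 441 called genes at a log2 fold change of at least 3 and 85 at -3 or less. Among the fifth of genes with the highest expression, 17.6% rose and 37.1% fell. Of protein-coding genes 21.3% rose and 19.2% fell, against 3.83% and 9.49% of lncRNA genes.

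**Figure D1:**
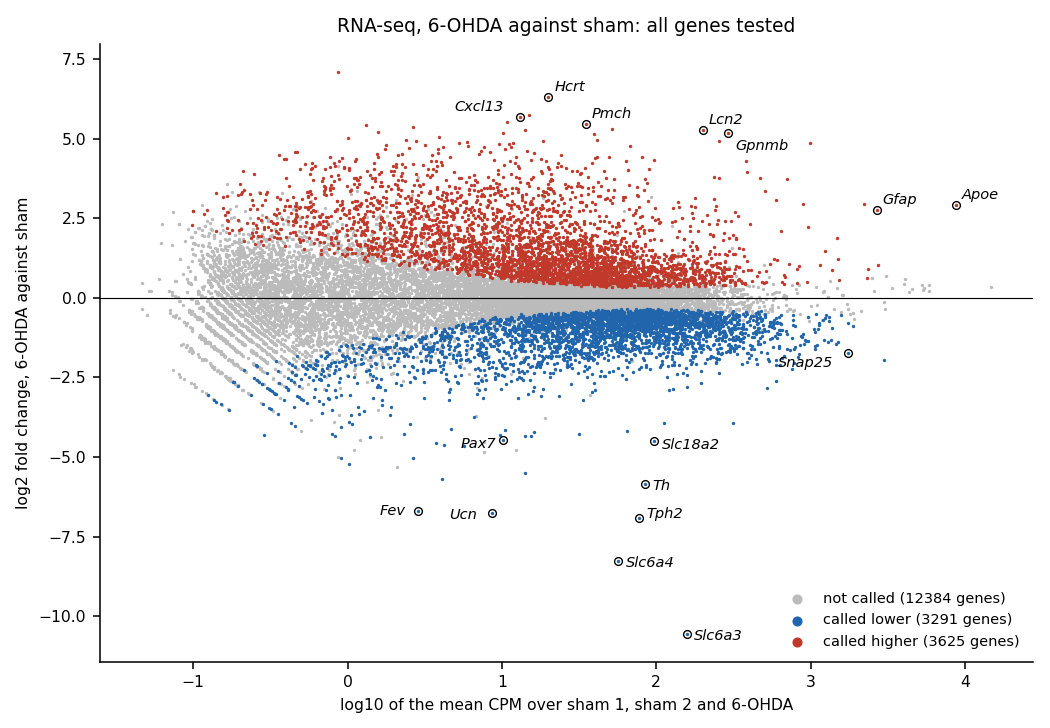
Each point is a tested gene, with the log10 of its mean level over the 3 libraries (CPM, read counts scaled to a common library size) on the x axis and its log2 fold change, 6-OHDA against sham, on the y axis; colours mark genes called higher, called lower or not called by edgeR. The 3625 genes that rose reach higher absolute values than most of the 3291 that fell, while Slc6a3 lies lowest at -10.55.

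The 15 genes with the largest rises held neuropeptides and genes of phagocytes and reactive glia. Cxcl13, a chemokine that attracts B cells, was measured at 0.68 and 0.782 CPM (normalised read counts, scaled to a common library size) in sham 1 and sham 2 and at 37.9 CPM in the 6-OHDA library, a log2 fold change of 5.69 ± 0.25 (SE, adjusted p = 0.00823). The sham libraries lay close together and far below the 6-OHDA library. Lgals3, a galactose-binding lectin of activated phagocytes, was at 6.12 and 1.46 CPM in sham and 146 CPM after 6-OHDA (5.29 ± 0.86, adjusted p = 0.0123, single-sham values 6.64 and 4.58). Lcn2, an iron-siderophore-binding protein of reactive astrocytes, was at 20.9 and 8.66 CPM in sham and 572 CPM after 6-OHDA (5.28 ± 0.80, single-sham values 6.04 and 4.77). Atp6v0d2, a subunit of the vacuolar proton pump, rose by 5.74 ± 0.78 (single-sham values 7.02 and 5.02), and Pclaf, a replication-clamp-associated factor of dividing cells, by 5.23 ± 0.62. The remainder were Hcrt and Pmch, given below with the regional markers, Lyz1 (single-sham values 6.97 and 4.76), Ugt1a6b, Mcoln3 (6.42 and 4.70), S100a4 (6.85 and 4.48), Hpse (6.86 and 4.38), Gpnmb (7.34 and 4.36), Steap4 (5.75 and 4.73) and Apoc2 (7.52 and 4.10).

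Most of the 15 largest falls were of genes of monoamine neurons or of transcription factors and receptors of the midbrain. Slc6a3, the dopamine transporter through which 6-OHDA enters the cell, held 11759 and 16812 counts in the sham libraries and 8 counts in the 6-OHDA library, and fell by 10.55 ± 1.43 on the log2 scale (adjusted p = 0.00922). Chrna5, a nicotinic receptor subunit, was at 6.47 and 5.98 CPM in sham and 0.252 CPM after 6-OHDA (-4.62 ± 0.36). Fev, a transcription factor of serotonin neurons, had 2 counts in the 6-OHDA library, at 0.00905 of the sham mean with a 95% counting interval of 0.0011 to 0.0327 (single-sham values -5.85 and -7.25 on the log2 scale). Gm41029 also had 2 counts there, at 0.0256 of the sham mean (95% counting interval 0.0031 to 0.0923). These intervals are exact Poisson intervals and cover counting error only. Among the others were Slc6a4, Tph2, Ucn (single-sham values -6.03 and -7.25), Th, Pou4f2, C1ql4, Xkr7, Foxa2, Slc18a2 and Pax7.

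The differences in CPM, which is not scaled to gene length, bring out abundant genes. Apoe, the main lipid carrier secreted by glia, rose from 3421 and 2056 CPM to 20628 CPM (log2 fold change 2.91 ± 0.40, adjusted p = 0.00933), so that it gained more reads than any other called gene. Gfap, the astrocyte intermediate filament, and Ctsd, a lysosomal protease, followed among called genes. COX1, encoded by mitochondrial DNA, read 14246 and 12787 CPM in sham and 17101 CPM after 6-OHDA and did not pass the test (adjusted p = 0.428). Among the large losses in CPM was that of Snap25, a SNARE protein of synaptic vesicles, which fell from 2081 and 2502 CPM to 686 CPM (-1.74 ± 0.23). Kif1a, a motor of axonal transport, fell from 1634 and 1752 CPM to 677 CPM (-1.32 ± 0.19). The 10 most abundant genes took 5.31% to 8.69% of all counts, most in the 6-OHDA library.

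Genes of monoamine neurons were among those with the largest falls. Of the 24 dopaminergic neuron genes tested, 20 fell and 1 rose, with a median log2 fold change of -2.53. Th, the rate-limiting enzyme of dopamine synthesis, was at 115 and 135 CPM in the sham libraries and 2.15 CPM in the 6-OHDA library (-5.86 ± 0.33, adjusted p = 0.00823). Ddc, which turns L-DOPA into dopamine, was at 177 and 148 CPM in sham and 10.7 CPM after 6-OHDA (-3.93 ± 0.28). As at every called gene, the groups did not overlap for either enzyme, and the sham libraries differed little. Of the transcription factors that maintain these neurons, En1 fell by 4.32 ± 0.87 and Foxa2 by 4.56 ± 0.50. Sox6, a factor also used by other cell types, went the other way, from 24.1 and 24.2 CPM to 46.5 CPM (0.95 ± 0.13, adjusted p = 0.00936). In bulk tissue, fewer cells of a type and less RNA per cell cannot be told apart.

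All 8 serotonergic genes also fell, with a median of -3.11. Slc6a4, the serotonin transporter, was at 124 and 46.3 CPM in sham and 0.271 CPM after 6-OHDA (-8.28 ± 0.98, adjusted p = 0.00847, single-sham values -7.40 and -8.83). Tph2, the serotonin-synthesizing enzyme of brain, was at 165 and 66.6 CPM in sham and 0.949 CPM after 6-OHDA (-6.92 ± 0.80, single-sham values -6.13 and -7.44). The sham libraries themselves differed more at these genes than at Th or Slc6a3, and both lay far above the 6-OHDA library. None of the 5 noradrenergic genes examined, Dbh and Slc6a2 among them, is listed in the table used here, which holds only genes with at least 1 count in every library.

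Genes shared by most neurons fell together. All 16 pan-neuronal genes fell (median -1.21), and their summed level in the 6-OHDA library was 0.373 of the sham mean. Nefm, a neurofilament of large axons, went from 799 and 846 CPM to 133 CPM (-2.62 ± 0.33, adjusted p = 0.00881), and Nefl from 1021 and 1032 CPM to 219.6 CPM (-2.22 ± 0.22). Stmn2, a microtubule regulator of neurites, fell by 0.96 ± 0.12. Thus the members of this list differed in size of fall, with the neurofilaments at the far end.

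Genes of other transmitter classes also fell in part. Of 10 GABAergic genes 7 fell and 1 rose (median -1.46). Gad2, a GABA-synthesizing enzyme, went from 422 and 438 CPM to 149 CPM (-1.53 ± 0.21), and Slc32a1, the vesicular GABA transporter, from 232 and 221 CPM to 56.8 CPM (adjusted p = 0.012). The member that rose was Nkx2-2, a transcription factor that oligodendrocyte precursors use as well (0.69 ± 0.14). Of 12 glutamatergic genes 8 fell (median -0.82). Slc17a6, the vesicular glutamate transporter of midbrain and thalamus, fell by 1.73 ± 0.28, whereas Slc17a7, that of cortex and hippocampus, read 30.7 and 12.2 CPM in sham and 142 CPM after 6-OHDA and did not pass the test (2.74 ± 1.56, adjusted p = 0.226, single-sham values 3.55 and 2.22). Among 5 cholinergic genes only Slc5a7, the choline transporter, fell (-2.18 ± 0.58, adjusted p = 0.0414, single-sham values -1.41 and -2.68), and Chat read 12.8 and 3.65 CPM in sham and 2.01 CPM after 6-OHDA (adjusted p = 0.111, single-sham values -0.86 and -2.67).

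Most genes of vesicle release and of voltage-gated channels fell. Of 18 genes of synaptic vesicle release 16 fell (median -1.56). Syt2, the calcium sensor of fast-releasing synapses, went from 366 and 541 CPM to 30 CPM (-3.92 ± 0.64, adjusted p = 0.0127), and Vamp1 from 632 and 834 CPM to 103 CPM (-2.83 ± 0.42). Of 16 sodium and calcium channel genes 10 fell and of 17 potassium channel genes 13 fell, both with a median of -1.30. Scn4b, a sodium channel subunit of fast-spiking neurons, fell by 2.34 ± 0.28 and Kcnc4, a voltage-gated potassium channel, by 2.16 ± 0.28. For the release genes given here, as for every gene called lower, both sham libraries lay above the 6-OHDA library.

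Regional markers were not evenly represented in the 3 libraries, and their values belong beside every neuronal result above. Of 8 tectum genes 4 fell (median -3.43). Pax7, a tectal transcription factor, was at 14.9 and 15.1 CPM in sham and 0.678 CPM after 6-OHDA (-4.46 ± 0.23, adjusted p = 0.00823), and Pou4f2 was at 2.25 and 9.96 CPM in sham and 0.116 CPM after 6-OHDA (-5.70 ± 1.40, single-sham values -6.40 and -4.25). In the opposite direction, Hcrt, the orexin peptide of the lateral hypothalamus, was at 0.369 and 1.06 CPM in sham and 58.6 CPM after 6-OHDA (6.32 ± 1.06, adjusted p = 0.0131, single-sham values 5.79 and 7.30). Pmch, the melanin-concentrating hormone precursor of the same area, was at 0.485 and 3.97 CPM in sham and 100.4 CPM after 6-OHDA (5.46 ± 0.98, single-sham values 4.66 and 7.69).

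Other regional genes were mixed. Of 14 hypothalamic genes tested 3 rose and 2 fell (median 0.07). The third to rise was Oxt, oxytocin (3.57 ± 0.75, single-sham values 2.90 and 5.15), and those that fell were Cartpt, a peptide precursor (-4.19 ± 0.52), and Otp, a transcription factor (-3.01 ± 0.71, single-sham values -2.12 and -3.56). Of 9 cortical and hippocampal genes tested 2 rose: Tbr1 from 0.524 and 0.695 CPM to 4.65 CPM (2.92 ± 0.71) and Neurod6 from 1.98 and 1.54 CPM to 10.5 CPM (2.58 ± 0.55). Of 12 thalamic and habenular genes 3 fell, led by Pou4f1 (-4.31 ± 0.54), of 10 striatal genes 3 fell, and of 6 cerebellar genes tested 1 fell. None of the 9 choroid plexus genes passed. The part that the dissected tissue had in the neuronal falls was not tested.

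**Figure D2:**
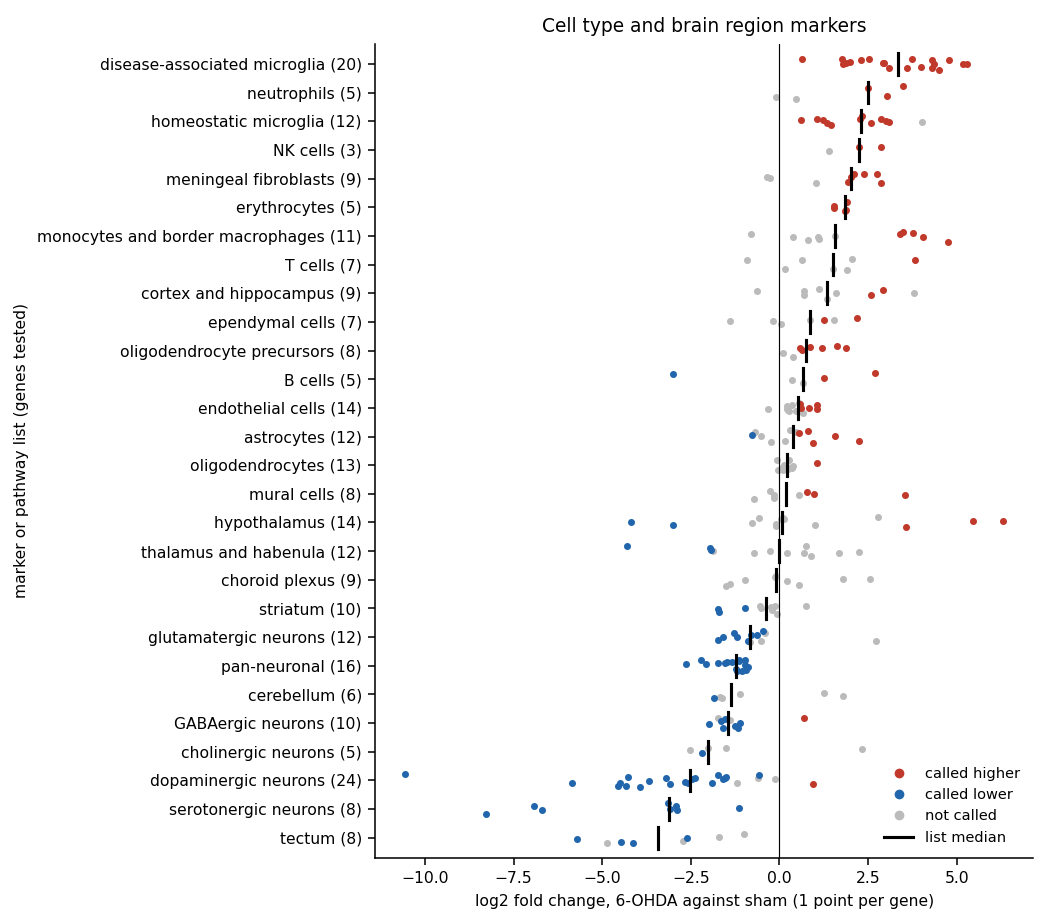
Log2 fold changes (x axis), 6-OHDA against sham, of the tested members of each cell-type and regional list (y axis); points are genes, red where they rose, blue where they fell and grey where not called by edgeR, and vertical bars are list medians. The medians of the neuronal lists lie below 0, with serotonergic genes at a median of -3.11 and dopaminergic genes at -2.53, and the microglial lists lie above 0, at 2.30 and 3.35.

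Microglial genes rose in both the resting and the disease-associated lists. Of 12 homeostatic genes 11 rose (median 2.30), with a summed level 6.13 times the sham mean, and all 20 disease-associated genes rose (median 3.35), with a summed level 5.56 times the sham mean. Apoe alone held 20628 of the 37710 CPM of the disease-associated sum in the 6-OHDA library. In sham 1 and sham 2 it held 3421 of 7800 CPM and 2056 of 5772 CPM. P2ry12, the purinergic receptor of surveying microglia, went from 29.2 and 27.2 CPM to 66.4 CPM (1.23 ± 0.17, adjusted p = 0.00958), and Tmem119 from 23.9 and 24.2 CPM to 61.3 CPM (1.35 ± 0.16). Cx3cr1, the fractalkine receptor, rose more, from 68.6 and 47.3 CPM to 422 CPM (2.87 ± 0.31), as did Gpr34 (3.01 ± 0.38). P2ry12 and Tmem119 thus rose by less than the median of their list.

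The disease-associated list spanned a wide range, from Fth1 of ferritin (0.63) to Lgals3 (5.29). Trem2, a lipid-sensing receptor, was at 10.1 and 5.52 CPM in sham and 123 CPM after 6-OHDA (3.98 ± 0.59, adjusted p = 0.0106), and its adaptor Tyrobp rose by 3.61 ± 0.35. Lpl, lipoprotein lipase, went from 17.3 and 8.72 CPM to 264 CPM (4.35 ± 0.46). Gpnmb, a membrane glycoprotein of lipid-laden phagocytes, was at 40.2 and 5.08 CPM in sham and 824 CPM after 6-OHDA (5.19 ± 1.17, adjusted p = 0.0265, single-sham values 7.34 and 4.36). For Gpnmb the sham libraries stood far apart, and the 6-OHDA library exceeded both. Clec7a, a glucan receptor, rose by 4.78 ± 0.68 (single-sham values 5.86 and 4.15) and Spp1, osteopontin, by 3.74 ± 0.35, from 177 and 97.5 CPM to 1838 CPM.

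**Figure D3:**
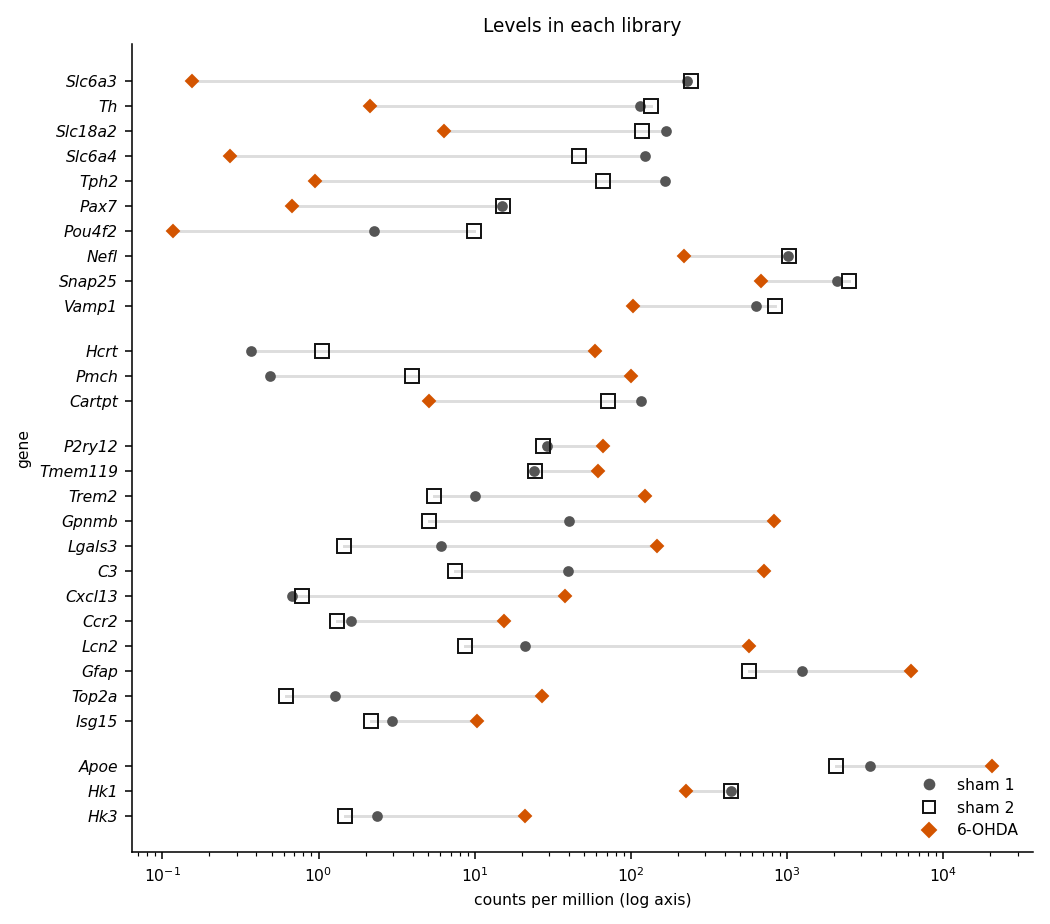
Levels (CPM, log axis) of selected genes in sham 1, sham 2 and the single 6-OHDA library, 1 point per library. At Th, Slc18a2 and Slc6a3 both sham points lie above the 6-OHDA point, and at Trem2, Gpnmb and Apoe both lie below it, with a wide gap between the sham points at Gpnmb (40.2 and 5.08 CPM).

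Genes of blood-borne leukocytes rose in part. Of 11 monocyte and border-macrophage genes tested 5 rose (median 1.58). Ccr2, the chemokine receptor of inflammatory monocytes, went from 1.61 and 1.32 CPM to 15.5 CPM (3.40 ± 0.51, adjusted p = 0.0106), while Ly6c2, another monocyte marker, read 4.8 and 4 CPM in sham and 5.75 CPM after 6-OHDA (adjusted p = 0.447) and Mrc1, of border macrophages, 15.6 and 8.37 CPM against 26 CPM (adjusted p = 0.123). Ms4a7 rose by 4.75 ± 0.55. Cd68 (4.04 ± 0.56, single-sham values 4.81 and 3.54) and Cd14 (3.48 ± 0.49, single-sham values 4.08 and 3.04), also on this list, are expressed by microglia as well.

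Among lymphocyte and granulocyte genes, those of T and NK cells were at low levels. In sham 1 and sham 2, T cell genes summed to 6.89 and 5.71 CPM and NK cell genes to 0.5242 and 0.4055 CPM. Of 10 neutrophil genes 5 were listed and 3 of them rose, Csf3r furthest (3.50 ± 0.41), a receptor that microglia carry too. Of 14 T cell genes 7 were listed, and only Cd28 rose (3.84 ± 1.04, adjusted p = 0.0435, single-sham values 5.48 and 2.998), and Cd3d, Cd3e, Cd3g and Cd8a are not listed in the table used here. Of 5 B cell genes listed, Igkc (2.69 ± 0.54) and Ighm (1.25 ± 0.27), which encode antibody chains, rose, and Pax5, which is also a midbrain transcription factor, fell from 22.5 and 19.4 CPM to 2.59 CPM (-3.01 ± 0.73). Of 3 NK cell genes listed 2 rose. Blood content moved as well. The 5 erythrocyte genes all rose (median 1.85), and their summed level was 711 and 404 CPM in the sham libraries and 1817 CPM in the 6-OHDA library. Its part in the leukocyte values was not tested.

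Genes listed for astrocytes moved in both directions, and most of those listed for reactive astrocytes rose. Of 12 general astrocyte genes 5 rose and 1 fell (median 0.39), and of 13 genes listed for reactive astrocytes, several of which other cells express too, 12 rose (median 3.73). Aqp4, the water channel of astrocyte endfeet, went from 535 and 325 CPM to 2026 CPM (2.24 ± 0.33, adjusted p = 0.0103), and Sox9, a nuclear marker of astrocytes, from 29.7 and 29.2 CPM to 87.9 CPM (1.58 ± 0.19). Slc1a2, the main glutamate transporter, read 2168 and 2211 CPM in sham and 1369 CPM after 6-OHDA and did not pass (adjusted p = 0.0612). Aldoc, an aldolase of astrocytes, fell by 0.78 ± 0.21. Of the reactive genes, Gfap was at 1246 and 572 CPM in sham and 6237 CPM after 6-OHDA (2.78 ± 0.48, adjusted p = 0.0144, single-sham values 3.44 and 2.32), and Vim, a second intermediate filament, at 129 and 53.1 CPM in sham and 1236 CPM after 6-OHDA (3.76 ± 0.62, single-sham values 4.54 and 3.26). Serpina3n, a protease inhibitor, rose by 2.70 ± 0.38.

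Few genes of mature oligodendrocytes passed the test, and most genes of their precursors rose. Of 13 genes of mature oligodendrocytes 1 rose, the tight-junction gene Cldn11 (1.07 ± 0.14), and none fell (median 0.21). Mbp, myelin basic protein, read 5831 and 5227 CPM in sham and 6391 CPM after 6-OHDA (0.21 ± 0.25, adjusted p = 0.545), and Mog, a glycoprotein of the myelin surface, read 191 and 177 CPM in sham and 222 CPM after 6-OHDA (adjusted p = 0.33). Of 8 precursor genes 6 rose (median 0.74), among them Pdgfra, from 88.4 and 73.6 CPM to 147 CPM (0.86 ± 0.14, adjusted p = 0.0119), and Gpr17, which marks differentiating precursors (1.62 ± 0.23). The difference between the stages was not tested.

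Vascular and stromal genes rose in part. Of 14 endothelial genes 5 rose (median 0.52), with Cldn5 of the barrier junctions at 45.3 and 38.8 CPM in sham and 87.1 CPM after 6-OHDA (1.05 ± 0.15). Of 8 mural genes 3 rose (median 0.20, and 0.01 without sham 2), led by Tagln, an actin-binding protein (3.55 ± 0.33). In the 6-OHDA library 4 of the 8 lay above both sham libraries and 3 below both. Of 9 fibroblast genes 6 rose (median 2.03), with Col3a1 at 60.9 and 30.4 CPM in sham and 331 CPM after 6-OHDA (2.86 ± 0.47, adjusted p = 0.0126). The summed fibroblast level in sham 2 was 0.378 of that in sham 1. Of 7 ependymal genes 2 rose, and Foxj1, the regulator of motile cilia, went from 28.2 and 22.7 CPM to 60.6 CPM (1.25 ± 0.17). The list of collagen and scar matrix rose in all of its 22 members (median 2.51), from Sparc (0.55) to Timp1, a metalloprotease inhibitor (3.77 ± 0.45). Between them were Postn (2.93 ± 0.38), Col4a1 of the basement membrane (2.43 ± 0.31) and Lox, which crosslinks collagen (3.36 ± 0.51, single-sham values 3.95 and 2.94).

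Innate immune genes rose across receptors, adaptors and effectors. All 19 genes of Toll-like receptor signalling rose (median 2.19), as did 15 of 16 Fc receptor and phagocytosis genes (median 3.54) and 9 of 10 inflammasome genes (median 3.16). Tlr7, a sensor of single-stranded RNA, went from 6.31 and 3.29 CPM to 76 CPM (3.99 ± 0.44, adjusted p = 0.00823), and Fcgr4 from 0.582 and 0.463 CPM to 10.2 CPM (4.29 ± 0.28). Cybb, the catalytic subunit of the phagocyte NADPH oxidase, was at 8.56 and 1.84 CPM in sham and 109 CPM after 6-OHDA (4.41 ± 0.90, single-sham values 5.89 and 3.67). Casp4, the caspase of the non-canonical inflammasome, rose by 4.67 ± 0.59, and Nlrp3, the sensor of the canonical one, by 2.68 ± 0.26.

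Secreted signals rose as well. Of 16 chemokine genes 13 rose (median 3.42, and 4.13 without sham 1), and Ccl3 went from 0.777 and 0.406 CPM to 12.6 CPM (4.43 ± 0.48). Of 17 inflammatory cytokine and receptor genes tested 15 rose (median 2.34), with Il1b at 0.388 and 0.0869 CPM in sham and 2.98 CPM after 6-OHDA (3.69 ± 0.99, adjusted p = 0.0424, single-sham values 5.07 and 2.93) and Tgfb1 rising by 3.01 ± 0.38. Tnf and Il6 are not listed in the table used here. Of 17 complement genes 15 rose (median 3.06, and 3.88 without sham 1). C1qa, of the initiating complex, went from 85.3 and 47.5 CPM to 1025 CPM (3.95 ± 0.38, adjusted p = 0.00823), and C3, the central component, from 39.6 and 7.49 CPM to 713 CPM (4.93 ± 1.09, adjusted p = 0.0255, single-sham values 6.57 and 4.17).

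Antigen presentation rose in both classes. All 12 class I genes rose (median 2.45), with B2m, the shared light chain, at 90.7 and 74 CPM in sham and 557 CPM after 6-OHDA (2.76 ± 0.24, adjusted p = 0.00823). The immunoproteasome subunits Psmb8 and Psmb9 rose by 3.01 ± 0.32 and 3.07 ± 0.28. Of 10 class II genes 8 rose (median 2.95), and Cd74, the invariant chain, was at 24.6 and 9.79 CPM in sham and 192 CPM after 6-OHDA (3.49 ± 0.87, adjusted p = 0.0344, single-sham values 4.29 and 2.97). H2-Eb1 read 8.48 and 1.8 CPM in sham and 44.9 CPM after 6-OHDA and missed the threshold (adjusted p = 0.0578, single-sham values 4.64 and 2.40). Genes of the H2 family share near-identical stretches, so how the counting divided reads among them is uncertain.

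Interferon-stimulated genes were raised in 21 of 22 cases, with a median of 2.01. Isg15, a ubiquitin-like modifier, went from 2.93 and 2.17 CPM to 10.3 CPM (2.02 ± 0.34, adjusted p = 0.013). Oas1a, a sensor of double-stranded RNA, went from 1.07 and 0.681 CPM to 8.48 CPM (3.29 ± 0.42), and Bst2, a membrane tether, from 4.93 and 4.55 CPM to 30.5 CPM (2.68 ± 0.29). Ifit1 (1.39 ± 0.26) and Ifit3 (0.96 ± 0.15), which bind foreign RNA, rose less. The sham libraries were close together at Bst2 and further apart at Isg15 and Oas1a. At each of these genes, as at every gene called higher, the 6-OHDA library lay above both.

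Many such genes carry the interferon-stimulated response element (ISRE), to which STAT and IRF factors bind. The letters GAAANNGAAA, read on both strands, were found in the promoter window (250 bases before to 50 bases after the start, RefSeq on GRCm38.p6) of 11 of the 15 listed interferon-stimulated genes that have a window, which is 73.3%, and in 3.99% of 27025 promoters in all. Among windows of tested genes the share was 3.72%. They were found in 6.22% of windows of genes that rose and in 3.07% of windows of genes that fell. The stretches of 6 members that rose are shown because they carry the letters in more than 1 arrangement, with capitals on the matching bases, in the direction of the gene. Those of Isg15, Oas1a and Bst2 hold the letters as written, and those of Ifit1, Ifit3 and Gbp2 hold them on the opposite strand, with TTTC in place of GAAA.
Isg15, chr4:156200855-156200916, minus strand: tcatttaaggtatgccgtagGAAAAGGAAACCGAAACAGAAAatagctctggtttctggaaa
Oas1a, chr5:120907526-120907565, minus strand: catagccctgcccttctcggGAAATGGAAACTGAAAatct
Bst2, chr8:71537567-71537622, minus strand: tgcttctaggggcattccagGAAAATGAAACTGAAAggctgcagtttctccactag
Ifit1, chr19:34640765-34640833, plus strand: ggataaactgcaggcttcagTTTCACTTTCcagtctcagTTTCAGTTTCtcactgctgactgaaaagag
Ifit3, chr19:34583353-34583436, plus strand: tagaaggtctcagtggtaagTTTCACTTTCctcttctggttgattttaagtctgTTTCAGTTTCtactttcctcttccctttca
Gbp2, chr3:142620584-142620633, plus strand: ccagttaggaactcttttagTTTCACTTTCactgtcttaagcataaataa

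Isg15 has the longest unbroken run of these letters of the 6, and Ifit1 and Ifit3 have a pair of separate matches each. Another set of letters, GAGGAAGT, to which the myeloid factor PU.1 binds, was found in 5.96% of windows of genes that rose, 2.52% of those of genes that fell, 3.43% of those of all tested genes and 3.69% of all promoters. Among listed microglial genes with a window, it was found at 0 of 7 homeostatic and 1 of 17 disease-associated genes. The cyclic AMP response element TGACGTCA was found in 2.1% of windows of genes that rose, 3.86% of those of genes that fell, 3.12% of those of all tested genes and 2.03% of all promoters. The letters AAAGGTCA, bound by NR4A factors such as that of dopamine neurons, were found in 1.32% of windows of genes that rose, 1.14% of those of genes that fell, 1.32% of those of all tested genes and 1.7% of all promoters. A match is a description of the letters and not of binding.

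Genes of lysosomal breakdown rose and genes of cholesterol synthesis fell. Of 18 lysosomal genes 17 rose (median 2.03), and Ctss, a protease of phagocytes, went from 143 and 105 CPM to 1265 CPM (3.35 ± 0.28, adjusted p = 0.00823). Lamp1, a membrane protein of all lysosomes, rose by 1.00 ± 0.14. The exception was Gaa, the acid glucosidase, which fell from 759 and 782 CPM to 349 CPM (-1.14 ± 0.16, adjusted p = 0.00961). All 10 genes of cholesterol efflux and storage rose (median 2.74), among them Abca1, the main exporter, from 91.5 and 64.9 CPM to 575 CPM (2.88 ± 0.28), Plin2, a lipid-droplet coat protein (3.14 ± 0.40), and Ch25h, which makes an oxysterol (3.80 ± 0.67, single-sham values 4.97 and 3.13).

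Of 18 cholesterol synthesis genes 15 fell and none rose (median -0.92). Sqle, squalene epoxidase, was at 77.7 and 87.2 CPM in sham and 37.9 CPM after 6-OHDA (-1.12 ± 0.12, adjusted p = 0.00823). Fdft1, which commits the pathway to sterols, went from 96.8 and 102 CPM to 32.6 CPM (-1.61 ± 0.16), and Hmgcs1, an early enzyme, from 302 and 311 CPM to 159 CPM (-0.95 ± 0.14). At Mvk the values were 21.1 and 21.2 CPM in sham and 18.2 CPM after 6-OHDA (adjusted p = 0.262). The sham libraries were nearly equal at Hmgcs1 and Mvk, and the fall of Hmgcs1 was larger than the spread between them.

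**Figure D4:**
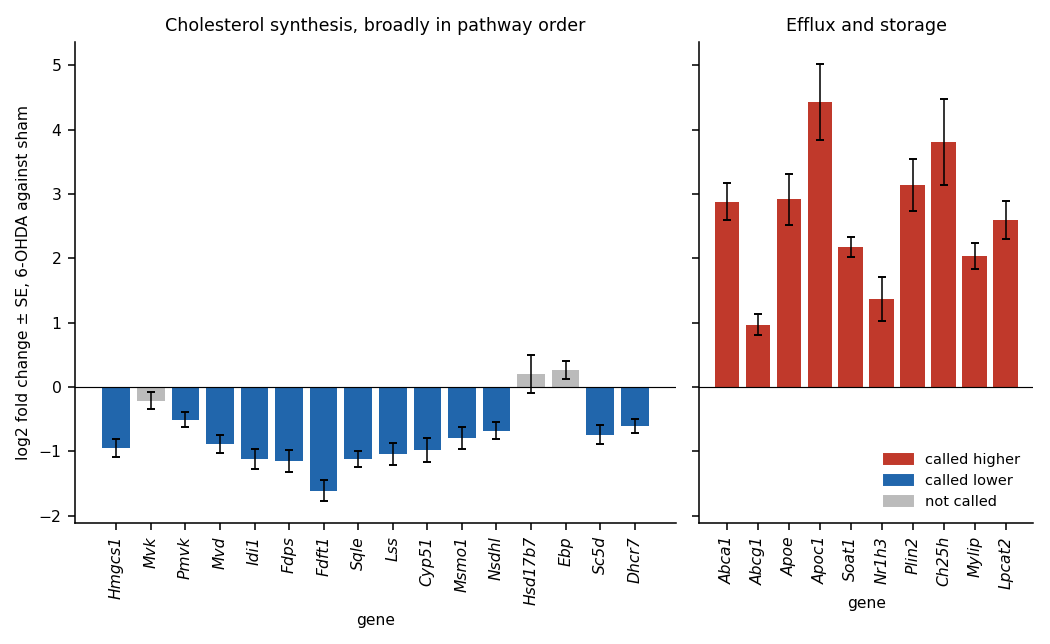
Log2 fold changes (y axis, bars from 0) with standard errors (whiskers), 6-OHDA against sham, of 16 of the 18 cholesterol synthesis genes (left) and of the efflux and storage genes (right); grey bars did not pass the edgeR test. The synthesis genes that passed lie below 0, Fdft1 at -1.61 among them, and the 10 efflux and storage genes lie above 0.

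Energy metabolism and oxidative defence moved in both directions. Of 17 glycolysis genes 10 fell and 4 rose (median -0.57). Hk1, the hexokinase of neurons, went from 441 and 436 CPM to 224 CPM (-0.97 ± 0.12, adjusted p = 0.00862), while Hk2 rose from 7.42 and 5.36 CPM to 34.4 CPM (2.43 ± 0.26) and Hk3, the hexokinase of leukocytes, from 2.37 and 1.48 CPM to 21.1 CPM (3.46 ± 0.33). Of 24 nuclear genes of oxidative phosphorylation 9 fell and none rose (median -0.42), with Sdha of complex II falling by 0.85 ± 0.15. Of 13 subunits encoded by mitochondrial DNA 1 rose, ND3 (0.55 ± 0.11), and ND1 read 5505 and 5049 CPM in sham and 6979 CPM after 6-OHDA (adjusted p = 0.223).

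Of 20 NRF2 and antioxidant genes 7 rose and 5 fell (median 0.25). Hmox1, heme oxygenase, went from 11.5 and 7.26 CPM to 89.4 CPM (3.25 ± 0.35, adjusted p = 0.00823), Nfe2l2, NRF2 itself, rose by 2.03 ± 0.19 and Prdx6 by 2.32 ± 0.22. Nqo1, a widely used NRF2 target, read 8.64 and 5.92 CPM in sham and 10.6 CPM after 6-OHDA (adjusted p = 0.176). The superoxide dismutases fell, Sod1 from 194 and 200 CPM to 125 CPM (-0.66 ± 0.12) and Sod2 from 179 and 208 CPM to 111 CPM (-0.80 ± 0.14).

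Genes of cell division rose from low levels. Of 24 cell-cycle genes 21 rose (median 2.68), and Top2a, which untangles chromosomes, went from 1.28 and 0.623 CPM to 27 CPM (4.84 ± 0.56, adjusted p = 0.00847, single-sham values 5.43 and 4.39). Mki67, the proliferation marker, went from 1.67 and 1.01 CPM to 17.4 CPM (3.71 ± 0.40). Ccne1, a cyclin of the entry into S phase, fell (-1.41 ± 0.29). Of 9 replication-dependent histone genes tested 3 rose, and of 24 cytosolic ribosomal protein genes 23 rose by small steps (median 0.90), such as Rplp0 (1.36 ± 0.12).

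Stress and injury genes were divided. Of 16 p53 and apoptosis genes 12 rose (median 1.35), including Cdkn1a, a brake of the cell cycle (1.99 ± 0.30), and Casp8 (2.57 ± 0.26). Of 17 immediate early genes 8 rose (median 0.83), Egr2 most, from 0.505 and 0.406 CPM to 10.7 CPM (4.55 ± 0.54). Of 13 axon injury genes 7 rose and 2 fell (median 1.02). Atf3, a transcription factor of injured neurons and of other cells, went from 7.61 and 4.37 CPM to 65.6 CPM (3.46 ± 0.37, adjusted p = 0.00823). In the single-cell RNA-seq given below, its mean was highest in cluster 6 (2.75), that of homeostatic microglial genes, against 0.77 in cluster 2. Per the methods, those cells were dissociated with enzymes before capture, and the part of this step in the Atf3 means was not tested. Gap43 of growth cones (-0.72 ± 0.11) and the trophic factor Bdnf (-1.26 ± 0.21) fell. Of 17 genes of the integrated stress and unfolded protein responses 7 rose and 2 fell (median 0.36), and Atf4, a central regulator, read 102 and 108 CPM in sham and 109 CPM after 6-OHDA (adjusted p = 0.694).

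**Figure D5:**
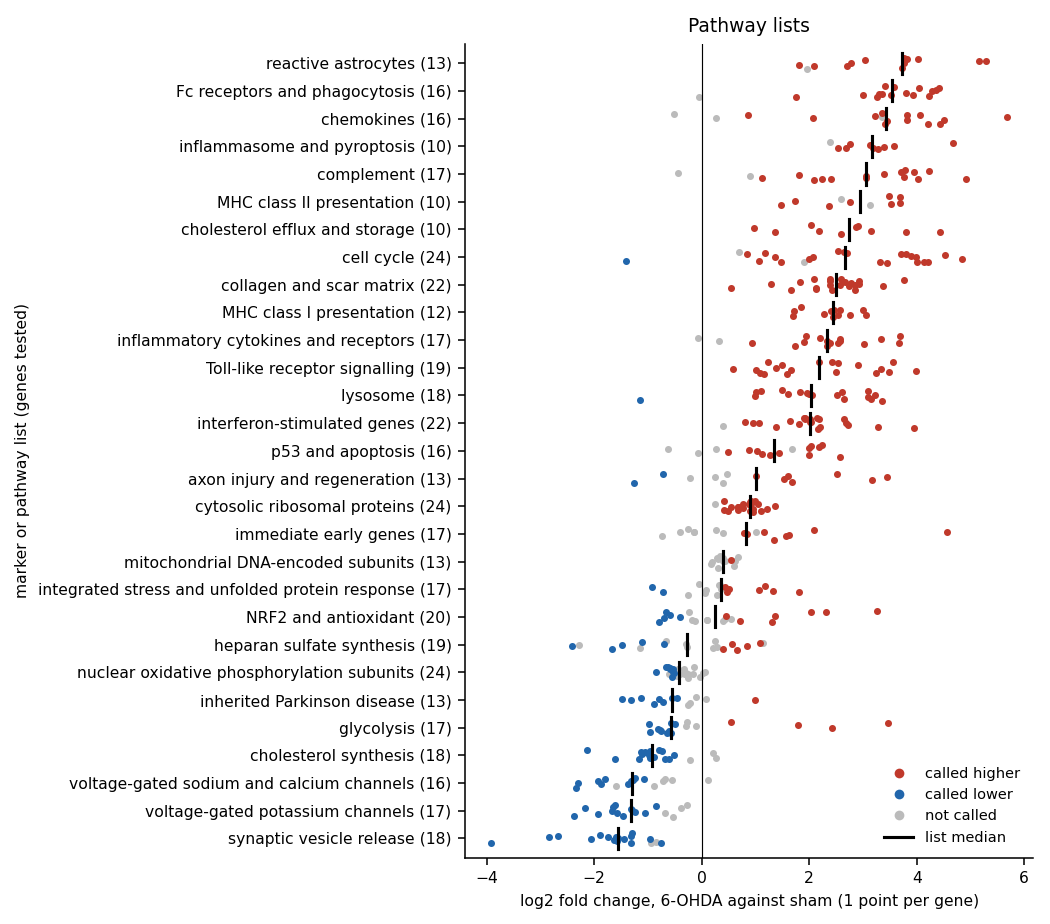
Log2 fold changes (x axis), 6-OHDA against sham, of the tested members of each pathway list (y axis); points are genes, red where they rose, blue where they fell and grey where not called by edgeR, and vertical bars are list medians. The medians of the immune, lysosomal, scar and cell-cycle lists lie above 0, those of the release, channel and cholesterol synthesis lists lie below 0, and heparan sulfate and glycolysis genes are found on both sides.

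Genes of heparan sulfate synthesis, the pathway of the NDST enzymes, were as often raised as lowered. Of 19 genes 5 rose and 5 fell (median -0.27). Sulf2, which removes sulfate groups at the cell surface, went from 149 and 124 CPM to 291 CPM (1.09 ± 0.15, adjusted p = 0.00915), and Ext1, of the chain polymerase, from 19.4 and 19.9 CPM to 30.9 CPM (0.65 ± 0.17). The sulfotransferases Hs6st2 (-1.67 ± 0.18), Hs3st2 (-2.41 ± 0.53) and Hs3st4 (-1.10 ± 0.19) fell. Of 13 genes mutated in inherited Parkinson disease 8 fell and 1 rose (median -0.56). Synj1, of synaptic vesicle recycling, went from 356 and 390 CPM to 134 CPM (-1.48 ± 0.13, adjusted p = 0.00823), and Dnajc6, which uncoats clathrin vesicles, from 320 and 348 CPM to 134 CPM (-1.31 ± 0.14).

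Chromatin signal at the same genes was available as 1 column per group, so no test was made. The H3K27ac mark of active regulatory regions had a higher 6-OHDA-to-sham ratio than the median gene at 49.1% of 1203 genes that rose, 50% of 1376 that fell and 50.2% of 4022 not called. For ATAC-seq, which measures open chromatin, the shares were 53.4% of 395, 50.3% of 364 and 48.7% of 1117 genes. All these shares lay between 48.7% and 53.4%.

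In the single-cell RNA-seq of a 6-OHDA sample, from which myelin debris had been removed before capture, each gene was assigned to the cluster with its highest mean. Only genes and markers whose highest mean exceeded 0.1 were counted, so markers below it are not in the numbers given. Of 16 pan-neuronal genes 6 were counted, and of 12 glutamatergic genes 6. Snap25, Rbfox3 and Nefl were not, with means of 0.0863, 0.0224 and 0.0057 in cluster 2. Cluster 3, in which 15 of 19 disease-associated microglial genes had their highest mean, held 10.5% of 2862 genes that rose, 2.34% of 1968 that fell and 4.87% of all 11240. Cluster 6, with 11 of 12 homeostatic microglial genes, held 15.5% of genes that rose, 6.05% of those that fell and 9.39% of all. In cluster 1, with all 7 neutrophil genes, lay 11.3% of genes that rose, 4.01% of those that fell and 6.19% of all. Cluster 7, with all 14 endothelial genes, held 16% of genes that rose, 13.6% of those that fell and 15.3% of all. Cluster 2, with all 11 astrocyte genes, 9 of 12 oligodendrocyte genes, 6 of 7 ependymal genes, 5 of 6 glutamatergic genes and 3 of 6 pan-neuronal genes, held 14.3% of genes that rose, 41.8% of those that fell and 29.5% of all. Of the reactive astrocyte list, Gfap had its highest mean in cluster 2 (0.0725, under the minimum of 0.1). Lcn2 and Cd44 had theirs in cluster 1, Vim in cluster 5 and Cxcl10 in cluster 6. These shares describe 1 library and carry no test. The table used here holds means per cluster and not single cells, so doublets could not be examined, and their removal is not described in the sources used here.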

How the data were processed

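Members and gene lists were chosen with earlier results of these data known. Per the labels and methods, the authors made RNA-seq libraries with the TruSeq Stranded mRNA kit, aligned reads with HISAT2 to mm10 and assembled them with StringTie. The deposited table holds read counts per gene with FPKM and TPM values made by the authors. FPKM entered only the alternatives with limma and the ranking of genes by length, and TPM was not tested. The columns of the authors' own comparisons (fold changes and p-values) were not used. The signal values of H3K27ac and ATAC regions and the single-cell natural log values were used as the authors deposited them. Their coordinates were not used to print regions.

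Counts of 5 libraries (2 sham, 1 6-OHDA, 2 6-OHDA with NDST3) were filtered with filterByExpr, scaled by TMM and fitted with edgeR's quasi-likelihood test (edgeR 4.0.16, R 4.3.3), with 2 residual degrees of freedom. The 6-OHDA group has 1 library, whose own spread is assumed to be that of the others. CPM are counts scaled to the TMM-adjusted library size, and SE is the absolute log2 fold change divided by the square root of F. P-values were adjusted by Benjamini-Hochberg over all 19300 genes. The code was tested on simulated data. Named genes are the 15 largest rises and 15 largest falls among called genes whose groups did not overlap and whose mean over the 3 libraries reached 1 CPM, and in each list the first 4 members, up to 5 called members with the largest change and members against the majority, of which examples are given. Spp1, Mrc1, Fth1 and the genes of largest CPM difference were chosen after their values were seen. Alternatives were DESeq2 1.42.0, limma 3.58.1, other scalings and filters, a replicate block and leaving out each library. Promoter windows are from RefSeq. Some genes that this rule names are not reported here.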

Additional observations from a re-analysis of the deposited data

How the results depend on the processing

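Of 16 alternatives run, DESeq2, other scalings, other filters, a robust fit and leaving out the NDST3 libraries kept the counts of genes within 1.5 times of those reported, and no named gene changed sign under any alternative. With limma on log2(FPKM + 1), 1721 genes were higher and 962 lower by the 2-fold rule. Leaving out 1 library at a time gave 0 to 3718 genes that rose and 0 to 3422 that fell at the adjusted threshold, the 0 in both cases without sham 1 or sham 2, since the comparison then has 1 library on each side and rests on the spread of the others. By the 2-fold rule the same fits gave 2112 to 2852 higher and 1493 to 1999 lower. With a replicate block, 1008 genes rose and 788 fell. In that blocked fit 280 of 554 named genes compared lost their call. Deviations of same-numbered sham and NDST3 libraries correlated at -0.43 across genes. This 1 value cannot show whether the replicate numbers pair the samples. The crossed replicate block, chosen after seeing the data, gave 3845 and 3599 genes. The median of the choroid plexus list changed sign, to 0.33 with the replicate block and 0.16 without sham 1 (-0.33 without sham 2), and that of the cerebellar list to 1.88 without sham 1 (-1.69 without sham 2); the cause was not tested. The cholinergic median was -0.95 without sham 1 and -2.67 without sham 2, below the dopaminergic -2.48 there. With a higher minimum for detection in the single-cell table, cluster 2 held 6.79% of genes that rose, 24.7% of those that fell and 15.9% of all, cluster 3 held 5.90% of all, and cluster 6 held 17.8%, 8.75% and 12.7%.

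The 6-OHDA group is 1 library, which has no spread of its own, and the model takes the spread from the sham and NDST3 libraries. Genes near the lower limit of the table, at under 1 CPM, rest on few counts. Chromatin and single-cell values have 1 column per group and no test.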

Other observations

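The study's methods describe female mice. Genes of the Y chromosome were counted in every library compared here: Ddx3y had 3566, 5079 and 4651 counts in sham 1, sham 2 and the 6-OHDA library, Kdm5d had 1078, 1287 and 1095, Uty had 687, 824 and 1119, and Eif2s3y had 1503, 1780 and 2353. Xist and Tsix, transcribed from the X inactivation centre, are not listed in the table used here. In the single-cell RNA-seq of the 6-OHDA sample, Y-chromosome genes were near 0. The highest cluster mean (natural log) was 0.0014 for Ddx3y, 0.0006 for Kdm5d and 0.0079 for Eif2s3y. Whether the bulk and single-cell samples differ in sex was not tested.

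At single genes the chromatin columns and the RNA counts could go different ways. The ATAC signal at the region nearest to the start of Slc6a3 was 24.85 in sham and 8.25 after 6-OHDA, and its RNA fell by 10.55 on the log2 scale. The H3K27ac signal nearest to the start of Apoe was 12.09 in sham and 6.95 after 6-OHDA, while its RNA rose by 2.91, and that of Ctsd was 3.02 in sham and 6.45 after 6-OHDA. These 3 genes were chosen after their values were seen, and 1 column per group allows no test.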
